A study of Caenorhabditis elegans with 12 samples.

Results

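Lysozymes, saposin-like proteins and antimicrobial peptides are the best known secreted or lysosomal effectors with which C. elegans digests bacteria and defends itself against them. All genes of the deposited count matrix whose WormBase symbol begins with lys, ilys, spp, abf, cnc, fipr or thn followed by a number were taken, 97 of the 46748 genes listed. They comprise 10 lys, 6 ilys, 30 spp, 6 abf, 11 cnc, 29 fipr and 5 thn genes, all annotated as protein-coding. The rule uses names only and no measured value.

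Lysozymes cleave the peptidoglycan of bacterial cell walls. The lys genes encode lysozymes related to those of amoebae, and the ilys genes encode lysozymes of the invertebrate type. Saposin-like proteins (spp) include pore-forming caenopores that permeabilise bacteria swallowed by the worm. The abf genes encode defensin-like antibacterial factors, the cnc genes encode caenacins, glycine-rich peptides made mainly in the epidermis and induced by fungal infection, and the fipr genes encode small fungus-induced-protein-related peptides. The thn genes encode thaumatin-like proteins, a family best known as antifungal defence proteins of plants. Worms fed on E. coli use some of these proteins, in the intestinal lumen above all, to kill and digest their food.

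RNA-Seq of poly(A) RNA was done on whole worms on day 1 of adulthood, grown at 20 °C on NGM plates with concentrated E. coli OP50. The 12 libraries were 4 labelled crh-1(n3315) (strain MT9973), 4 labelled circ-crh-1(syb385) (strain VDL786) and 4 of wild type (N2). The n3315 allele is described as a loss-of-function allele of crh-1, the worm CREB transcription factor gene. The syb385 allele is a CRISPR deletion in a crh-1 intron that was made to remove the circular RNAs of the gene. In the study's methods for RNA collection, larvae at the last stage were moved to plates with FUdR, which blocks progeny, except where stated otherwise. No exception is stated for RNA-Seq, and the labels do not mention FUdR. Each genotype is 1 strain, and the alleles act in every tissue that uses the gene. The study's methods call the 4 libraries of a genotype independent biological replicates.

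Total counts per library lay between 16348586 and 25369267. The mean level of crh-1 was 50.1 CPM (counts scaled to the library's effective size) in the libraries labelled n3315, 44.8 CPM in syb385 libraries and 42.4 CPM in wild type, so the counts gave no check of either mutant label. Marker lists of the intestine, pharyngeal muscle, pharyngeal gland, epidermis, body wall muscle, neurons, coelomocytes and germline were all detected. Wild-type replicates 1 and 3 stood apart. Replicate 1 lay more than 2-fold above or below every other wild-type library for 9 of the 58 tested members (15.5%), against 3.05% of all tested genes. It was above the other libraries for ilys-2, ilys-3 and thn-1 and below them for lys-2, ilys-5, spp-4, spp-23, spp-28 and cnc-3. Replicate 3 did so for 8.62% of the tested members, against 6.35% of all tested genes, the largest such share of any library, and was above the others for spp-25, cnc-2, fipr-3, fipr-5 and fipr-11. Where leaving out a single library ended a call, this is stated below, with the values or the largest adjusted p. The same holds for calls against wild type made this way in members described singly. Other calls made by leaving out a library, between the mutants or in other members, are not all named. A whole-worm RNA level cannot tell fewer cells of a type from less RNA per cell, which holds for every result below.

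The members took 0.131% to 0.164% of the counts in libraries labelled n3315, 0.23% to 0.258% in syb385 libraries and 0.218% to 0.443% in wild type. The n3315 libraries lay below all 8 others, while syb385 overlapped wild type. Most of these counts came from the lys, ilys and spp families. The summed level of the lys family was 428 to 494 CPM in n3315, 794 to 819 CPM in syb385 and 648 to 1508 CPM in wild type. The summed level of the spp family was 656 to 860 CPM in n3315, 1037 to 1125 CPM in syb385 and 985 to 1513 CPM in wild type. The ilys sum was 121.8 to 187 CPM in n3315, 465 to 563 CPM in syb385 and 117 to 711 CPM in wild type, and ilys-5 alone made up at least 91.6% of its mean in every genotype.

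**Figure D1:**
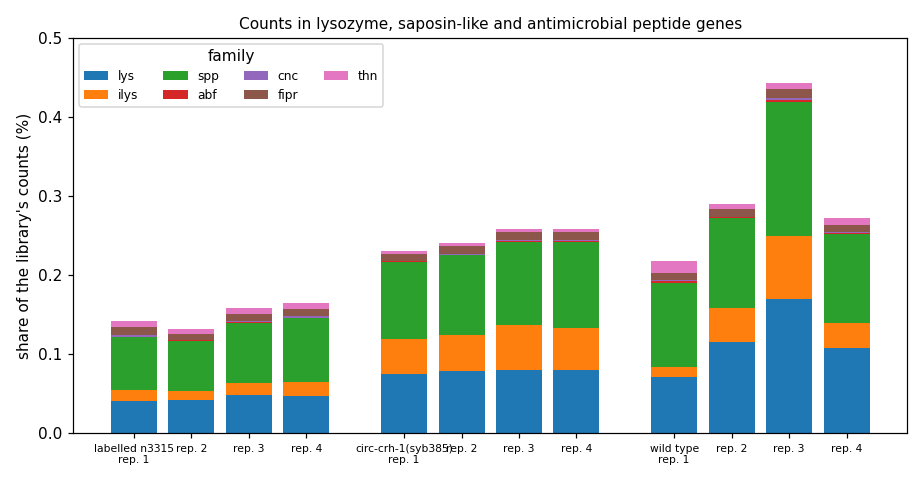
Share of each library's counts (y axis, %) in the members, stacked by family, for the 12 libraries (x axis: libraries labelled n3315, circ-crh-1(syb385), wild type). The bars of the n3315 libraries reach 0.131% to 0.164%, and the tallest bar is wild-type replicate 3 at 0.443%.

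Per kilobase of exon, the highest wild-type levels were those of spp-5 (877 ± 222 CPM per kb, SD, n = 4 for all levels here), lys-4 (733 ± 314), ilys-5 (345 ± 265), lys-7 (280 ± 37.7), spp-2 (254 ± 91.2) and spp-14 (248 ± 74.7). The SDs of neighbours in this order overlap. At the other end, 11 members had no count in any library and 9 more had at most 3 counts in every library, the floor below which no fold change is given. The low-count filter left 58 members for testing, and 39 were not tested. The highest count of an untested member in any library was 40. The untested members were 16 fipr, 8 spp, 6 cnc, 3 abf, 3 thn, 2 ilys and 1 lys gene, lys-9 and abf-3 among those without a count.

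A gene was called where its Benjamini-Hochberg adjusted p, over 14511 genes tested with edgeR's quasi-likelihood fit, was under 0.05 and its fold change at least 2. Fewer members rose than fell in both mutants. In the libraries labelled n3315, 3 of the 58 tested members were higher than in wild type (5.17%, against 4.17% of all tested genes) and 21 were lower (36.2%, against 11.2%). In syb385 libraries, 3 were higher (5.17%, against 2.24%) and 12 were lower (20.7%, against 4.48%). The mutants share their wild-type libraries. Between the mutants themselves, 2 members were higher in n3315 than in syb385 (3.45%, against 1.49%) and 9 were lower (15.5%, against 2.39%).

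The libraries of the groups did not overlap for 26 members between n3315 and wild type (44.8%, against 38.7% of all tested genes), for 18 between syb385 and wild type (31%, against 18.7%) and for 20 between n3315 and syb385 (34.5%, against 33.5%). The last share lies near that of all genes, and the first is not far above it. The median log2 fold change of the 58 members was -0.77 in n3315 and -0.24 in syb385, beside -0.04 and -0.05 over all tested genes. Of the 58, 6 passed the filter through only 1 or 2 genotypes (lys-3, ilys-3, spp-9, fipr-3, fipr-7 and fipr-24), and their differences are in part set by the filter. Among the other 52 members, 18 were lower (34.6%) and 2 higher (3.85%) in n3315, and 9 were lower (17.3%) and 2 higher (3.85%) in syb385. The share of all genes under the same restriction was not computed, so these shares have no background beside them. No member was called in opposite directions in the 2 mutants.

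**Figure D2:**
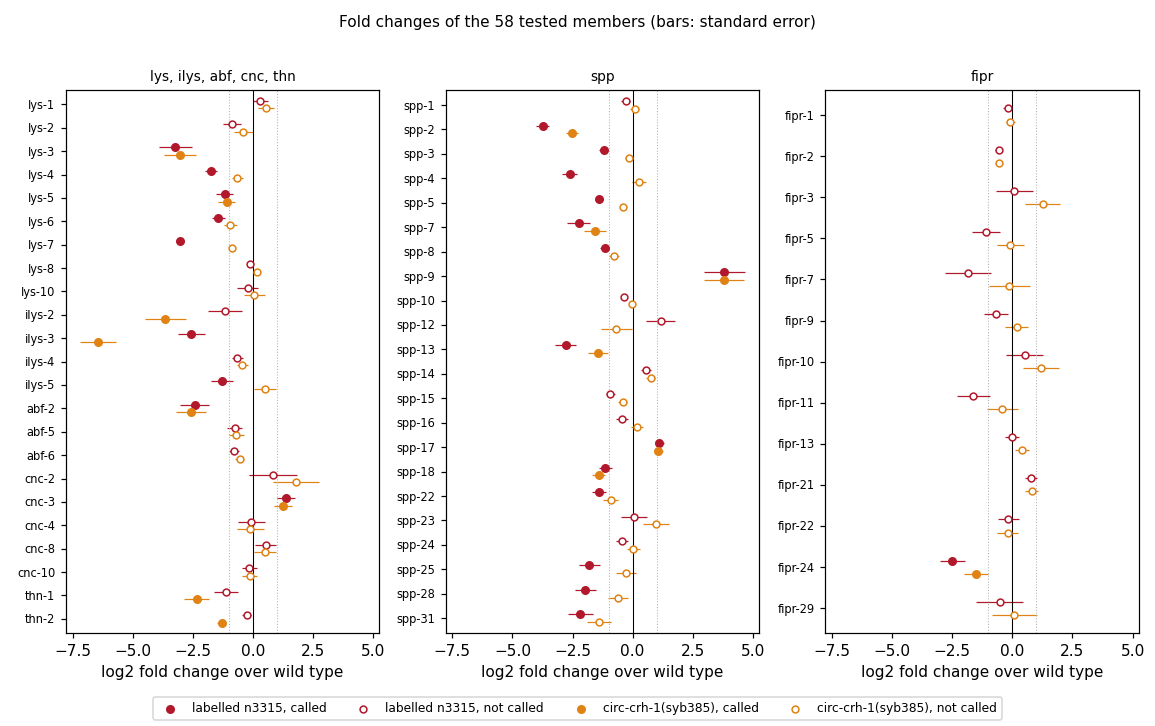
Log2 fold change over wild type (x axis, with the standard error) of the 58 tested members (y axis, by family) in libraries labelled n3315 and in syb385 libraries. Filled points passed both thresholds, 24 members in n3315 and 15 in syb385, most of them left of 0, and dotted lines mark 2-fold.

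Of the 10 lys genes, 9 were tested. In n3315, 5 of them were lower than in wild type (lys-3, lys-4, lys-5, lys-6 and lys-7). In syb385, 2 were lower (lys-3 and lys-5). None was called higher in either mutant, against 4.17% of all tested genes in n3315 and 2.24% in syb385. The lower ones made up 55.6% and 22.2% of the tested lys genes, against 11.2% and 4.48% of all tested genes. The most clear-cut was lys-7, an intestinal lysozyme that is a known target of the FOXO factor DAF-16 and is needed for resistance to several bacterial pathogens. Its level was 27, 32.5, 33.2 and 32.3 CPM in n3315, 134, 145, 139 and 137 CPM in syb385 and 206, 267, 270 and 283 CPM in wild type. The 3 genotypes did not overlap and n3315 was lowest. Against wild type, lys-7 was 8.21-fold lower in n3315 (log2 fold change -3.04 ± 0.12, SE, adjusted p = 3.88e-10). In syb385 the difference from wild type passed the p threshold but was under 2-fold (-0.89 ± 0.11, adjusted p = 7.72e-05). Between the mutants, lys-7 was 4.45-fold lower in n3315 than in syb385 (adjusted p = 4.41e-08).

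The lysozyme gene with the highest wild-type level, lys-4, had 136, 130, 182 and 186 CPM in n3315, 331, 314, 335 and 364 CPM in syb385 and 290, 530, 835 and 466 CPM in wild type. The n3315 libraries lay below all others, and syb385 overlapped wild type. The fold change over wild type was -1.74 ± 0.23 in n3315 (adjusted p = 4.45e-05) and -0.66 ± 0.23 in syb385 (adjusted p = 0.06, not called). In n3315, lys-4 was 2.12-fold lower than in syb385 (-1.08, adjusted p = 0.00611), and without n3315 replicate 2 this difference fell just under 2-fold (-0.998). The nearby lys-6 had 3.79, 3.47, 4.37 and 5.36 CPM in n3315, 5.04, 6.06, 5.45 and 7.52 CPM in syb385 and 6.27, 10.8, 16.7 and 12.5 CPM in wild type. It was lower in n3315 (-1.44 ± 0.26, adjusted p = 0.000523), while in syb385 (-0.94) it was called only without wild-type replicate 1 (-1.15) or without syb385 replicate 4 (-1.07).

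The weakly expressed lys-3 and lys-5 were lower in both mutants. The counts of lys-3 were 1, 6, 1 and 4 in n3315, 2, 2, 5 and 4 in syb385 and 27, 19, 16 and 62 in wild type, so that the mutants rest on a handful of reads. Its log2 fold change was -3.23 ± 0.68 in n3315 (adjusted p = 0.00132) and -3.04 ± 0.67 in syb385 (adjusted p = 0.0057), and without n3315 replicate 2 the n3315 value moved to -3.82. lys-3 passed the low-count filter only through wild type, so its lower values in the mutants are in part set by the filter. For lys-5, levels were 1.73, 1.12, 1.21 and 1.69 CPM in n3315, 1.01, 1.70, 1.57 and 1.82 CPM in syb385 and 1.86, 4.48, 4.47 and 2.24 CPM in wild type. Both mutants lay just below the lowest wild-type library. Its call in syb385 (-1.09 ± 0.35, adjusted p = 0.0436) was lost when any library other than wild-type replicates 1 and 4 was left out (adjusted p up to 0.119). That call was also lost with no low-count filter, in a fit of the 2 groups only and with a replicate block (adjusted p = 0.0669, 0.0939 and 0.0769). Its call in n3315 (-1.18, adjusted p = 0.0132) fell under 2-fold without wild-type replicate 2 (-0.98) or 3 (-0.99).

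The other abundant lysozyme genes showed no call. The level of lys-1, which is made in the intestine, was 136, 126, 138 and 132 CPM in n3315, 164, 157, 159 and 148 CPM in syb385 and 36.4, 139, 186 and 67.8 CPM in wild type. The wild-type libraries spanned both mutants (0.31 and 0.55, adjusted p = 0.474 and 0.275, for n3315 and syb385). For lys-8, another intestinal lysozyme, levels were 107, 117, 100 and 104 CPM in n3315, 124, 149, 120 and 127 CPM in syb385 and 96.0, 130, 123 and 114 CPM in wild type. Its log2 fold changes were -0.11 in n3315 and 0.17 in syb385, and its exons overlap a gene on the opposite strand, which could share its reads if strand was not used in counting. lys-2 had 15.2, 17.2, 31.6 and 25.3 CPM in n3315, 29.7, 32.1, 31.9 and 30.9 CPM in syb385 and 8.73, 46.3, 66.4 and 42.3 CPM in wild type. Its n3315 value (-0.87, adjusted p = 0.0854) was called as lower only without wild-type replicate 1 (-1.21, adjusted p = 0.000558).

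**Figure D3:**
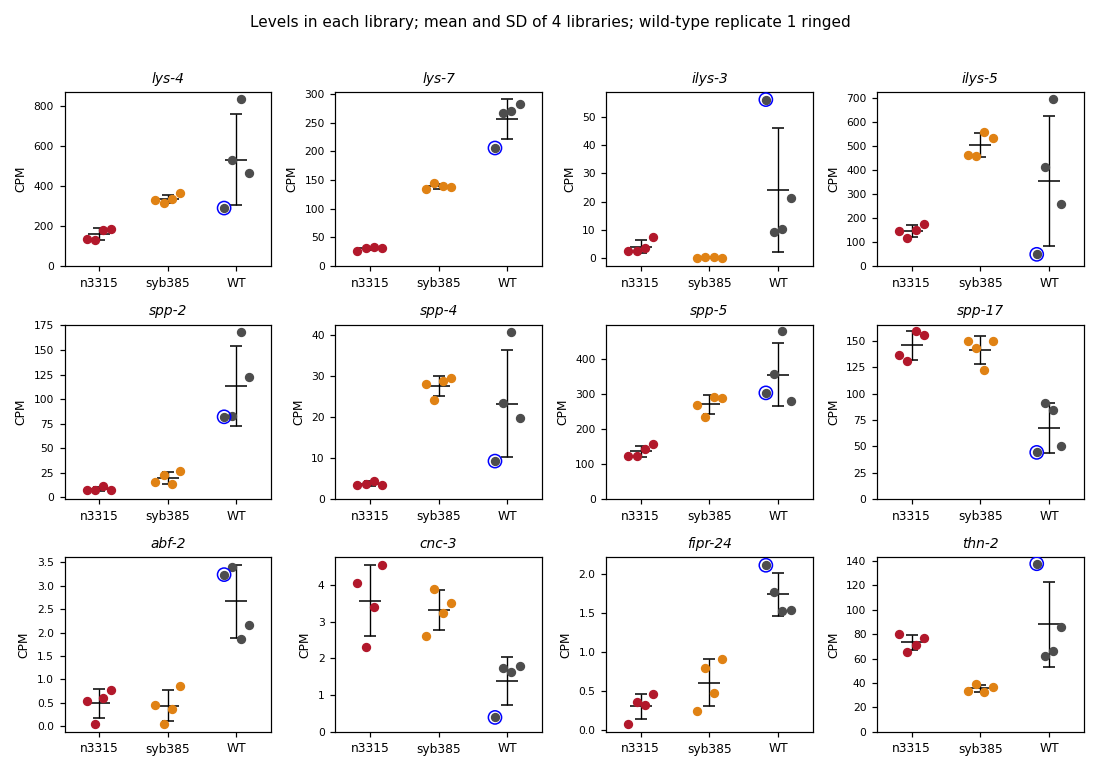
Level (y axis, CPM) of 12 members in each library, for libraries labelled n3315, syb385 and wild type (x axis), with the mean and SD of the 4 libraries. Wild-type replicate 1 is ringed. The 4 n3315 libraries lie below all others for lys-4, lys-7, spp-2, spp-4 and spp-5, and the 4 syb385 libraries lie below all others for ilys-3 and thn-2.

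Of the 6 ilys genes, 4 were tested, and ilys-3 showed the most extreme fold change of any member in syb385. Its product is a lysozyme of the pharynx, intestine and coelomocytes that helps to digest swallowed bacteria. It had 62, 52, 78 and 147 counts in n3315, 0, 8, 9 and 4 counts in syb385 and 1143, 197, 190 and 514 counts in wild type. The 3 genotypes did not overlap, with syb385 lowest and n3315 in between. In CPM these were 2.61, 2.66, 3.63 and 7.51 in n3315, 0, 0.453, 0.472 and 0.192 in syb385 and 56.0, 9.19, 10.3 and 21.4 in wild type. ilys-3 was 86.9-fold lower in syb385 than in wild type (-6.44 ± 0.75, adjusted p = 5.72e-05), a fitted value that rests on 0 to 9 counts in syb385, and 5.92-fold lower in n3315 (-2.57 ± 0.55, adjusted p = 0.00177). Without wild-type replicate 1 the values were -5.60 in syb385 (adjusted p = 2.1e-05) and -1.74 in n3315 (adjusted p = 0.00522). Between the mutants, ilys-3 was 14.7-fold higher in n3315 than in syb385 (3.87 ± 0.76, adjusted p = 0.00405). No syb385 library passed the cutoff of the low-count filter for ilys-3, so its differences in syb385 are in part set by the filter.

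Its neighbour ilys-2 was likewise lowest in syb385, at 0.807, 0, 0.0524 and 0.192 CPM, against 0.927, 0.766, 2.56 and 1.84 CPM in n3315 and 7.74, 0.653, 2.51 and 2.87 CPM in wild type. One syb385 library overlapped wild type. The call in syb385 (-3.65 ± 0.85, adjusted p = 0.00841) held without wild-type replicate 1 (-2.89, adjusted p = 0.03) and without syb385 replicate 1 (-5.23), but the size moved. The n3315 value was -1.17 (adjusted p = 0.201). Between the mutants, ilys-2 was 2.48 on the log2 scale higher in n3315 with adjusted p = 0.0544, which was under the threshold without syb385 replicate 1 (4.06, adjusted p = 0.0204) or without wild-type replicate 1, 2 or 3 (adjusted p = 0.0348, 0.038 and 0.0326). It was also called with no low-count filter, in a fit of the 2 groups only and with a replicate block (adjusted p = 0.0155, 0.0116 and 0.0205).

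The abundant ilys-5 went the other way between the mutants. It had 145, 115, 150 and 175 CPM in n3315, 464, 460, 559 and 534 CPM in syb385 and 49.1, 411, 693 and 259 CPM in wild type. Wild type spanned both mutants. In n3315 ilys-5 was 3.45-fold lower than in syb385 (-1.79 ± 0.47, adjusted p = 0.0177), with adjusted p = 0.0618 without n3315 replicate 2. Its call against wild type in n3315 (-1.27 ± 0.46, adjusted p = 0.0373) was lost in 9 of 17 alternatives. These included leaving out wild-type replicate 2 (adjusted p = 0.0785), wild-type replicate 3 (-0.71, adjusted p = 0.155) or any n3315 library (adjusted p = 0.0535 to 0.0971). In syb385 the value was 0.51 (adjusted p = 0.49).

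Of the 30 spp genes, 22 were tested. In n3315, 12 were lower than in wild type and 2 higher, and in syb385 4 were lower and 2 higher. The lower ones made up 54.5% and 18.2% of the tested spp genes, against 11.2% and 4.48% of all tested genes. The higher ones made up 9.09% in each mutant, against 4.17% of all tested genes in n3315 and 2.24% in syb385. Between the mutants, 6 were lower in n3315 than in syb385 (27.3%, against 2.39% of all tested genes). None was called higher there, which is near the 1.49% of all tested genes. The caenopore gene spp-5, whose pore-forming product helps to kill E. coli in the intestine, had the highest wild-type level of all members. It had 121, 124, 142 and 156 CPM in n3315, 267, 234, 293 and 287 CPM in syb385 and 303, 356, 480 and 279 CPM in wild type. The n3315 libraries lay below all others. spp-5 was 2.61-fold lower in n3315 than in wild type (-1.38 ± 0.15, adjusted p = 8.79e-06), and the syb385 value was -0.39 (adjusted p = 0.0898). Against syb385, the n3315 value was just under 2-fold (-0.99, adjusted p = 0.00102). It reached 2-fold without wild-type replicate 1 (-1.0), syb385 replicate 2 (-1.06) or n3315 replicate 3 or 4 (-1.004 and -1.06). It also did so in a fit of the 2 groups only and with DESeq2 size factors.

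Near spp-5 on chromosome X, spp-2 was lower in both mutants. Its level was 7.16, 7.25, 11.4 and 7.92 CPM in n3315, 15.6, 23.1, 13.5 and 27.2 CPM in syb385 and 82.0, 82.5, 168 and 122.1 CPM in wild type. The 3 genotypes did not overlap. The gene was 13.4-fold lower in n3315 (-3.75 ± 0.28, adjusted p = 2.68e-07) and 5.72-fold lower in syb385 (-2.52 ± 0.26, adjusted p = 2.24e-05), and 2.35-fold lower in n3315 than in syb385 (adjusted p = 0.0065). spp-4 was lower in n3315 and not called in syb385, with 3.54, 3.68, 4.51 and 3.37 CPM in n3315, 28, 24.1, 28.8 and 29.6 CPM in syb385 and 9.26, 23.4, 40.8 and 19.8 CPM in wild type. Against wild type its value was -2.62 ± 0.32 in n3315 (adjusted p = 2.18e-05) and 0.25 in syb385 (adjusted p = 0.616), and against syb385 it was 7.31-fold lower in n3315 (adjusted p = 9.39e-05). spp-3 had 26.6, 26, 35.6 and 33.4 CPM in n3315, 53.5, 64.7, 64.4 and 69.1 CPM in syb385 and 52.3, 65.5, 105 and 57.1 CPM in wild type. It was lower in n3315 than in wild type (-1.20 ± 0.19, adjusted p = 0.000164) and than in syb385 (-1.05, adjusted p = 0.0026). These calls fell under 2-fold without wild-type replicate 3 (-0.94), and without n3315 replicate 1 or 2 (-0.99 and -0.98).

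Other saposin-like genes were lower in both mutants. spp-18 had 14.9, 19.6, 23.5 and 34.7 CPM in n3315, 17.3, 21.8, 18.2 and 19.1 CPM in syb385 and 33.2, 38.8, 81.3 and 49.9 CPM in wild type. Its values were -1.13 in n3315 (adjusted p = 0.0031) and -1.41 in syb385 (adjusted p = 0.00236), and the n3315 call fell under 2-fold without wild-type replicate 3 (-0.81) or n3315 replicate 1 (-0.96). The weak spp-13 had 0.421, 1.02, 1.21 and 0.562 CPM in n3315, 1.06, 2.72, 3.30 and 1.05 CPM in syb385 and 8.28, 4.52, 4.14 and 5.24 CPM in wild type. It was lower in n3315 (-2.78, adjusted p = 0.000183) and in syb385 (-1.45, adjusted p = 0.0245), where the call was lost without wild-type replicate 1, syb385 replicate 1 or syb385 replicate 4 (adjusted p = 0.085, 0.0784 and 0.0819). spp-7 had 0.211, 0.511, 0.372 and 0.460 CPM in n3315, 0.756, 0.849, 0.210 and 0.671 CPM in syb385 and 2.60, 1.87, 1.09 and 1.83 CPM in wild type. It was lower in n3315 (-2.24, adjusted p = 0.00184) and in syb385 (-1.56, adjusted p = 0.0323), the second call being lost without wild-type replicate 1, 2 or 4 or syb385 replicate 1, 3 or 4 (adjusted p up to 0.115). The second call was also lost with no low-count filter and in a fit of the 2 groups only (adjusted p = 0.055 and 0.0575).

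A further 5 spp genes besides spp-3, spp-4 and spp-5 were lower in n3315 and not called in syb385. They were spp-22 (-1.40), spp-25 (-1.81), spp-28 (-1.97), spp-31 (-2.17) and spp-8 (-1.17), the last named after its values were seen. The level of spp-25 was 1.35, 0.715, 1.91 and 2.35 CPM in n3315, 5.34, 4.70, 5.14 and 3.02 CPM in syb385 and 2.65, 3.31, 11.1 and 5.28 CPM in wild type. n3315 lay below all other libraries. The value of spp-8 was -0.91 without wild-type replicate 1. In syb385, spp-22 (-0.92) was past 2-fold without wild-type replicate 2 (-1.09) or syb385 replicate 4 (-1.08), and spp-31 (-1.40, adjusted p = 0.0633) was called without wild-type replicate 2 or 3 (adjusted p = 0.0159 and 0.0322) and by DESeq2 on all libraries (-1.38, adjusted p = 0.046). Against syb385, the n3315 calls of spp-13 (-1.33, adjusted p = 0.0498), spp-25 (-1.52, adjusted p = 0.0265) and spp-28 (-1.34, adjusted p = 0.0496) lay near the threshold. They were lost in 8, 6 and 10 of the 12 fits that left out 1 library, with adjusted p up to 0.172, 0.0851 and 0.152. The calls of spp-13 and spp-28 were also lost with a replicate block. So was that of spp-13 with DESeq2 size factors and that of spp-28 with no low-count filter.

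Between the mutants and wild type, 7 members were called lower in n3315 than in both other genotypes without a call in syb385 (lys-4, lys-7, ilys-5, spp-3, spp-4, spp-25 and spp-28). The share of all tested genes that meet these conditions together was not computed, so this count has no background beside it. For these the difference between the mutants was itself tested and passed in the main fit. Only lys-7 and spp-4 kept both calls in all 17 alternatives. The calls of spp-25 and spp-28 against syb385 were lost in 6 and 12 of them, and that of ilys-5 against wild type in 9. For ilys-5, wild-type replicate 1 (49.1 CPM) lay below every n3315 library.

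Only 2 spp genes rose, both of them in both mutants. spp-17 had 137, 131, 160 and 156 CPM in n3315, 150, 144, 122.3 and 150 CPM in syb385 and 44.3, 91.4, 84.4 and 50.7 CPM in wild type. Both mutants lay above all wild-type libraries. Its values were 1.11 ± 0.19 in n3315 (adjusted p = 0.00031) and 1.07 ± 0.19 in syb385 (adjusted p = 0.00142), and each fell under 2-fold without wild-type replicate 1 (0.95 and 0.91) or wild-type replicate 4 (0.99 and 0.95). spp-9, a saposin-like gene known to be repressed by the TGF-beta ligand DBL-1, had 22, 9, 6 and 12 counts in n3315, 13, 10, 7 and 14 counts in syb385 and 1, 0, 0 and 2 counts in wild type. Wild type was at the floor of 3 counts per library. Against that floor spp-9 was at least 3.96-fold higher in n3315 and at least 3.93-fold higher in syb385. The fitted log2 values of the edgeR test were 3.81 and 3.79 (adjusted p = 0.00147 and 0.00478), and their size rests on 0 to 2 wild-type counts. Without wild-type replicate 4 they were 4.67 and 4.65, and the gene passed the filter only through the mutants. spp-14 also lay high, with 151, 93.0, 149 and 169 CPM in n3315, 152, 145, 163 and 182 CPM in syb385 and 64.6, 94.3, 134 and 88.9 CPM in wild type, but its values were under 2-fold (0.56 and 0.75, adjusted p = 0.0318 and 0.0164). The caenopore gene spp-1 had 20.7, 12.2, 21.3 and 22.4 CPM in n3315, 22.1, 24.9, 22.6 and 28.5 CPM in syb385 and 24.9, 17.6, 23.5 and 27.1 CPM in wild type, and was not called in either mutant.

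Of the 6 abf genes, 3 were tested. abf-2, whose defensin-like product is made in the pharynx and kills bacteria in vitro, was lower in both mutants. It had 0.547, 0.0511, 0.605 and 0.766 CPM in n3315, 0.454, 0.0566, 0.367 and 0.862 CPM in syb385 and 3.24, 3.40, 1.85 and 2.16 CPM in wild type. Every mutant library lay below every wild-type library. The values were -2.42 ± 0.61 in n3315 (adjusted p = 0.0048) and -2.58 ± 0.62 in syb385 (adjusted p = 0.0101). Its neighbour abf-1 had at most 13 counts in any library and was not tested. abf-6, the gene with the most counts of the family, had 6.15, 5.06, 6.05 and 6.13 CPM in n3315, 6.10, 6.51, 7.76 and 7.04 CPM in syb385 and 11.9, 7.60, 13.1 and 7.90 CPM in wild type. Its values were under 2-fold (-0.79, adjusted p = 0.00541, in n3315 and -0.56, adjusted p = 0.0691, in syb385). For abf-5 they were -0.76 and -0.69 (adjusted p = 0.0552 and 0.138).

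Of the 11 cnc genes, 5 were tested, 1 was higher in both mutants and none was lower. The higher one is 20% of the tested cnc genes, against 4.17% of all tested genes in n3315 and 2.24% in syb385. Over all tested genes, 11.2% were lower in n3315 and 4.48% in syb385, so none among 5 is near that background. cnc-3 had 4.04, 2.30, 3.40 and 4.55 CPM in n3315, 2.62, 3.90, 3.25 and 3.50 CPM in syb385 and 0.392, 1.73, 1.63 and 1.79 CPM in wild type. Both mutants lay above wild type. Its values were 1.36 ± 0.37 in n3315 (adjusted p = 0.00826) and 1.25 ± 0.37 in syb385 (adjusted p = 0.0318). The syb385 call was lost without wild-type replicate 1 (0.96) or without syb385 replicate 2, 3 or 4 (adjusted p = 0.0813, 0.0568 and 0.0736). It was also lost in a fit of the 2 groups only (adjusted p = 0.0767). cnc-2, the caenacin gene best known for its induction by the fungus Drechmeria coniospora, had 0.168, 0.255, 0.605 and 0.511 CPM in n3315, 0.353, 0.340, 1.10 and 1.20 CPM in syb385 and 0, 0, 0.763 and 0.125 CPM in wild type. It was not called (0.83 and 1.79, adjusted p = 0.519 and 0.217), but without wild-type replicate 3 it was higher in both (2.95 and 3.90, adjusted p = 0.0315 and 0.00933). Nor were cnc-4 (-0.07 and -0.11), cnc-8 (0.53 and 0.50) and cnc-10 (-0.15 and -0.14) called in n3315 or syb385, except cnc-8 in n3315 without wild-type replicate 3 (1.10, adjusted p = 0.0347). The direction of cnc-4 and cnc-10 flips with single libraries, wild-type replicate 3 among them.

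Of the 29 fipr genes, 13 were tested, and 1 was called, as lower in both mutants. This is 7.69% of the tested fipr genes, against 11.2% of all tested genes in n3315 and 4.48% in syb385. fipr-24 had 0.0842, 0.357, 0.326 and 0.460 CPM in n3315, 0.252, 0.792, 0.472 and 0.910 CPM in syb385 and 2.11, 1.77, 1.53 and 1.54 CPM in wild type. Both mutants lay below wild type, n3315 with 2 to 9 counts per library. No n3315 library passed the cutoff of the low-count filter for fipr-24, so its difference there is in part set by the filter. Its value was -2.50 ± 0.52 in n3315 (adjusted p = 0.0014). In syb385 (-1.51, adjusted p = 0.0464) the call was lost when any library other than wild-type replicate 3 or n3315 replicate 1 was left out (adjusted p up to 0.127). It was also lost with no low-count filter, in a fit of the 2 groups only and with a replicate block (adjusted p = 0.0831, 0.0553 and 0.0524). The most abundant fipr genes moved by less than 2-fold in opposite directions. fipr-2 had 24, 24.5, 20.5 and 26.9 CPM in n3315, 23, 26.8, 21.9 and 24.1 CPM in syb385 and 39.8, 40.8, 27.9 and 33.8 CPM in wild type (-0.57 in each mutant, adjusted p = 0.0037 and 0.0104). fipr-21 had 66.3, 35.8, 48.6 and 56.6 CPM in n3315, 55.0, 46.8, 53.6 and 53.1 CPM in syb385 and 17.1, 32, 48.9 and 22.4 CPM in wild type (0.79 and 0.80, adjusted p = 0.0201 and 0.0427). Without wild-type replicate 3 its values were past 2-fold (1.12 and 1.13).

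Of the 5 thn genes, 2 were tested, and both were lower in syb385, against 4.48% of all tested genes. The 2 are neighbours in the genome. thn-2 had 80.0, 65.2, 71.1 and 76.6 CPM in n3315, 33.5, 38.9, 33 and 37 CPM in syb385 and 138, 62.2, 66.0 and 86.1 CPM in wild type. The syb385 libraries lay below all others, and n3315 overlapped wild type. thn-2 was 2.47-fold lower in syb385 than in wild type (-1.31 ± 0.20, adjusted p = 0.000451), and just under 2-fold without wild-type replicate 1 (-0.997, adjusted p = 8.07e-05). It was 2.06-fold higher in n3315 than in syb385 (1.04 ± 0.20, adjusted p = 0.00343), and just under 2-fold without n3315 replicate 1 (0.996). Against wild type its n3315 value was -0.27 (adjusted p = 0.287). thn-1 had 2.78, 1.74, 3.40 and 1.84 CPM in n3315, 0.454, 1.53, 0.839 and 1.34 CPM in syb385 and 12.2, 3.40, 1.96 and 3.57 CPM in wild type. It was lower in syb385 (-2.34 ± 0.53, adjusted p = 0.007), with -1.51 without wild-type replicate 1 (adjusted p = 0.0238). In n3315 it was not called (-1.11, adjusted p = 0.0797), except without wild-type replicate 3 (-1.38, adjusted p = 0.0184). Between the mutants it was 1.23 on the log2 scale higher in n3315 (adjusted p = 0.117), and called without wild-type replicate 1 (adjusted p = 0.0345).

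Many members lie side by side in the genome. With gaps of at most 10000 bases, 59 of the 97 form 21 clusters of 2 to 6 genes. In the coordinates of the deposited table (WBcel235), spp-3, spp-2, spp-6, spp-4 and spp-5 lie on chromosome X between 7314883 and 7320384. There, spp-2 was lower in both mutants, while spp-3, spp-4 and spp-5 were called as lower in n3315 only and spp-6 had too few counts for a test. On chromosome IV, ilys-3, ilys-2 and ilys-1 lie between 2464471 and 2471449, and both tested members were lowest in syb385. Also on chromosome IV, thn-1 and thn-2 lie between 12380104 and 12384007 and were both lower in syb385, and lys-4, lys-5 and lys-6 lie between 11621443 and 11627947 and were all lower in n3315. On chromosome V, lys-1, lys-2 and lys-3 lie between 10277827 and 10283448, and only the weakly expressed lys-3 was called. In the cnc cluster on chromosome V between 1442588 and 1450189, cnc-3 was higher, cnc-4 and cnc-2 were not called, and cnc-1 and cnc-5 had no count in any library. No counting option for reads shared by near-identical copies is given in the sources used here, so the split between close paralogs is uncertain.

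**Figure D4:**
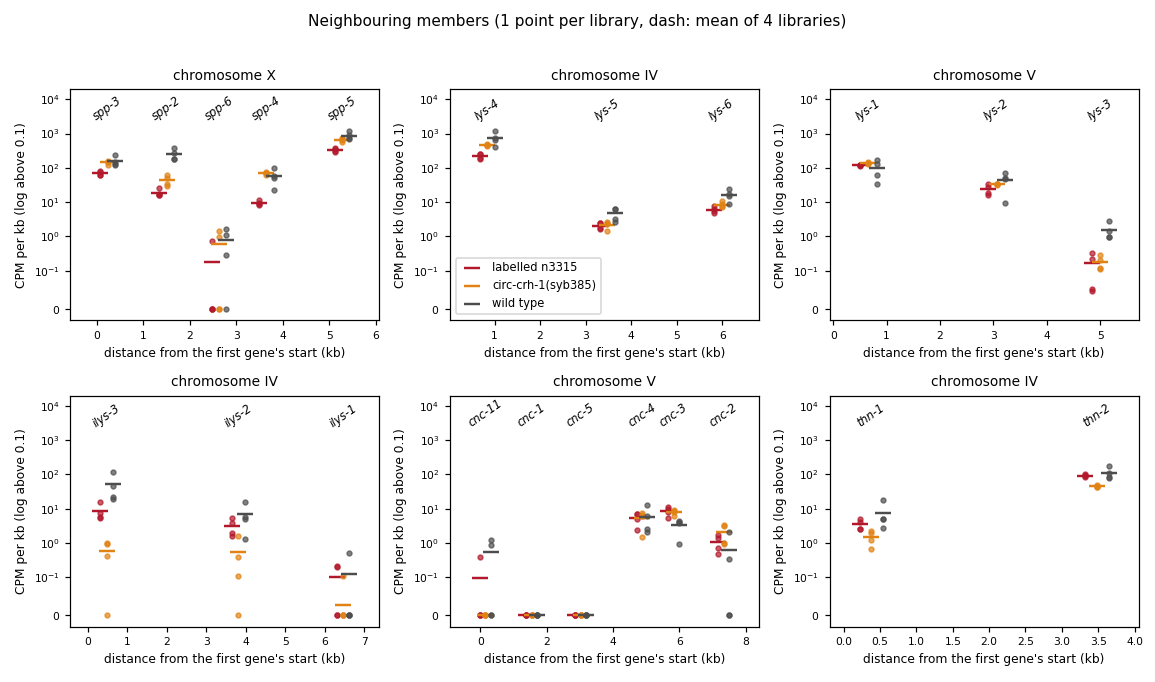
Level (y axis, CPM per kb of exon, logarithmic above 0.1 and linear below) of members in 6 genomic clusters against the distance of the gene's midpoint from the first gene's start (x axis, kb). Points are libraries, side by side for libraries labelled n3315, syb385 and wild type, and dashes are means of 4 libraries. In the spp cluster, spp-2 is low in both mutants and spp-4 in n3315 only, and the neighbours ilys-3 and ilys-2 are lowest in syb385.

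Regulators of such genes were counted as well. Of 27 genes of innate immune signalling, among them the p38 MAPK pmk-1 and the intestinal GATA factor elt-2, all were tested. One was lower in n3315 than in wild type, sta-2 (-1.07, adjusted p = 0.00126), a STAT-like factor that controls antimicrobial peptide genes of the epidermis, and none was called in syb385 or between the mutants. Over all tested genes, 11.2% were called lower in n3315 and 4.48% in syb385, so that counts this low in a list of this size lie near the background in syb385. The list's median log2 fold change was -0.19 in n3315 and -0.25 in syb385. Of 10 antimicrobial nlp peptide genes of the epidermis, 8 were tested and none was called in any of the 3 comparisons. The strongest of them, nlp-24, averaged 40.6 ± 11.2 CPM in n3315, 70.1 ± 5.48 CPM in syb385 and 29.5 ± 30.6 CPM in wild type (SD, n = 4).

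Marker genes of tissues that make these effectors were also called. Of 8 intestinal markers, all tested, act-5 and pept-1 were called higher in both mutants and none was called lower. Their summed level was 893 to 1089 CPM in n3315, 961 to 1300 CPM in syb385 and 420 to 749 CPM in wild type. The list did not move as a set. Every mutant library lay above every wild-type library for act-5, pept-1, ifb-2, ifc-2 and vha-6. For ges-1 and elt-7 every mutant library lay below every wild-type library, and elt-2 overlapped. The level of ges-1 was 21.7 to 27.6 CPM in n3315, 29.5 to 36.2 CPM in syb385 and 37.1 to 57.0 CPM in wild type. Of 6 pharyngeal gland markers, 5 were tested, of which phat-2, phat-5 and hlh-6 were lower in n3315 and phat-2 in syb385. Their summed level was 23.1 to 30.7 CPM in n3315, 30.7 to 43.0 CPM in syb385 and 26.4 to 42.9 CPM in wild type. Of 5 pharyngeal muscle markers, ceh-22 was called lower in n3315. In n3315, myo-2 and tnt-4 lay above every wild-type library without a call, and myo-1 and tni-4 overlapped wild type. The sum was 376 to 537 CPM in n3315, 299 to 461 CPM in syb385 and 134 to 395 CPM in wild type. Of 6 epidermal markers, che-14 was called lower in n3315. There elt-1, elt-3 and nhr-25 lay below every wild-type library without a call, and lin-26 and nhr-23 overlapped wild type. The sum was 195 to 239 CPM in n3315, 189 to 203 CPM in syb385 and 161 to 279 CPM in wild type. Of 2 coelomocyte markers none was called, and the sum was 6.03 to 10.9 CPM in n3315, 8.49 to 11.1 CPM in syb385 and 7.06 to 9.21 CPM in wild type. Against syb385, phat-2 and ceh-22 were lower in n3315. Of 4 body wall muscle markers, unc-54 and unc-89 were higher in n3315. There unc-15 lay above every wild-type library without a call (log2 fold change 0.71). This list did not move as a set either, as myo-3 overlapped wild type with a value in the other direction (-0.39, adjusted p = 0.289). The level of unc-54 was the highest of the 4. Their sum was 3733 to 4898 CPM in n3315, 2250 to 3261 CPM in syb385 and 1020 to 2766 CPM in wild type. The low end in wild type was replicate 3, with 563 CPM of unc-54 against 1289 to 1484 CPM in the other wild-type libraries, and 37.5 CPM of unc-89 against 102 to 113 CPM. Of 5 germline markers, glp-1 and oma-1 were higher in n3315, and the sum was 2030 to 2376 CPM in n3315, 1558 to 1806 CPM in syb385 and 914 to 1524 CPM in wild type. Of 5 neuronal and 6 early embryo markers none was called. No marker of these lists was at 0 in all libraries. Over all tested genes, 4.17% were called higher and 11.2% lower in n3315, and 2.24% and 4.48% in syb385. The part of tissue composition in the changes of the members was not tested.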

How the data were processed

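Whole day 1 adults of 3 genotypes with 4 libraries each were measured by poly(A) RNA-Seq. According to the submitters' processing notes, STAR v2.7.5a was the aligner and featureCounts v1.5.0 the counter. The authors deposited raw counts per gene, not normalized and not pooled, with exonic length and position in WBcel235. The counting options given by the study name exons and gene identifiers and no setting for strand or for reads mapping to several places. Symbols were found for 43693 of 46748 genes.

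Genes were filtered with filterByExpr (minimum count 10, minimum total 15), scaled by TMM and fitted with edgeR v4.0.16 (R v4.3.3) with a term for genotype and no other over the 12 libraries. The test was checked on simulated data. DESeq2 v1.42.0, its size factors, no filter, 2 groups only, a replicate block, no fold threshold and leaving out each library were alternatives. CPM use TMM-scaled library sizes. The floor of 3 counts per library covers counting error only.

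The members follow a rule on gene names alone, but this set of families and the lists were proposed with earlier results of these data known. Genes described singly were called members averaging at least 1 CPM in the higher group (at most 20 per comparison), a list of well-studied members, and the 2 members of each family with the highest wild-type level per length.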

Additional observations from a re-analysis of the deposited data

Results flagged for a closer look

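In 6 of 120 groups of 4 libraries examined among the 41 members described singly, the highest or lowest library stood further from the others than Dixon's 95% limit for 4 values. Chance flags about 1 in 20 groups. Of these, 3 were in wild type. thn-1 had 12.2 CPM in wild-type replicate 1 against 1.96 to 3.57 CPM in the other wild-type libraries. cnc-3 had 0.392 CPM in wild-type replicate 1 against 1.63 to 1.79 CPM. cnc-2 had 0.763 CPM in wild-type replicate 3 against 0 to 0.125 CPM. The other 3 were in libraries labelled n3315. lys-7 had 27 CPM in replicate 1 against 32.3 to 33.2 CPM. spp-1 had 12.2 CPM in replicate 2 against 20.7 to 22.4 CPM, and abf-6 had 5.06 CPM in replicate 2 against 6.05 to 6.15 CPM.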

How the results depend on the processing

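The 12 members lower in syb385 and the 21 lower in n3315 stayed within 1.5 times under every alternative run, with ranges of 8 to 12 and 18 to 23 when 1 library was left out. The counts of higher members did not. The 3 higher in syb385 became 1 in a fit of the 2 groups only, 5 with no fold threshold, and 1 (without wild-type replicate 1) to 7 (without wild-type replicate 3) when 1 library was left out. The 3 higher in n3315 became 5 with no fold threshold and 2 to 6 when 1 library was left out, with 6 without wild-type replicate 3. The 2 higher in n3315 than in syb385 became 4 with no filter on low counts, 5 in a fit of the 2 groups, and 1 to 5 when 1 library was left out, with 5 without wild-type replicate 1. The 9 lower in n3315 than in syb385 became 11 with no fold threshold and 3 (without n3315 replicate 2) to 10 when 1 library was left out. The cause was not tested.

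Same-numbered libraries of different genotypes did not deviate together. Their correlations lay between -0.08 and 0.12, and in 4 of 12 comparisons the same-numbered library was the best match, so the numbers were not taken to pair the libraries. With a replicate block, 10 members were lower in syb385 and 20 in n3315 than in wild type, and 7 were lower and 3 higher in n3315 than in syb385. Of 1577 values of 93 member comparisons under the alternatives, 1437 kept their direction and side of the thresholds, 95 lost a call, 29 gained one and 16 reversed. No called member reversed under any alternative. Members that were not called reversed when single libraries were left out. In syb385 the lowest and highest values were -0.034 and 0.159 for spp-1, -0.27 and 0.11 for spp-3, -0.018 and 0.662 for spp-4, -0.53 and 0.28 for spp-25, -0.40 and 0.55 for cnc-4 and -0.29 and 0.13 for cnc-10. In n3315 they were -0.37 and 0.59 for cnc-4, -0.30 and 0.12 for cnc-10 and -0.397 and 0.035 for thn-2. With a replicate block cnc-4 was 0.077 in syb385 and 0.19 in n3315. Members with a few counts per library, such as lys-3, spp-9 and fipr-24, are limited by depth.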
